A study of Saccharomyces cerevisiae with 6 samples.

Results

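The genes described here are 46 of the 7445 features in the count table. They were chosen by name, with earlier results of these data known. They encode the proteins L20 to L43 of the large (60S) ribosomal subunit of *S. cerevisiae* and the proteins of its stalk. Of these, 34 genes form 17 paralog pairs, 7 are single-copy genes, and 5 encode the stalk proteins P0, P1 and P2, of which P1 and P2 are again encoded by a pair of genes each. RNA was sequenced from 6 cultures of strain PDW2798, a W303 strain (W303-1A in the study's methods) that carries *RIO1-AID::KanMX4* and *PADH1-OsTIR1-9myc::URA3* and was grown at 25 °C in YPDA. Auxin (500 µM, 1 h) was added to 3 cultures, here called auxin cultures, and a mock to the other 3, here called mock cultures. The dose and time are those of the labels, and the study's methods describe a lower dose for the later part of the treatment. In this strain the kinase and ATPase Rio1 carries a degron, and the *ADH1* promoter drives OsTIR1, the plant receptor through which auxin triggers destruction of the tagged protein. All 6 cultures carry the degron and OsTIR1, and no auxin-treated culture without the degron was analysed here, so that effects of auxin itself and of Rio1 depletion cannot be told apart. The comparison asks how these mRNAs differed after auxin.

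The large subunit holds the peptidyl transferase centre, where amino acids are joined, and the tunnel through which the new chain leaves. Most of its proteins are small and basic and are embedded in the rRNA. The stalk is a mobile arm that recruits translation factors and stimulates their GTP hydrolysis. In budding yeast, ribosomal protein genes belong to the most strongly transcribed genes of growing cells, they depend on Rap1, Fhl1, Ifh1 and Sfp1, and they are repressed together when growth slows. Many have introns, although introns are rare in the rest of this genome, and most exist as a pair of paralogs retained from an ancient genome duplication.

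The RPL41 and stalk genes are shown first because sequence bears on how their counts can be read. L41 is the smallest member, with a coding sequence of 78 bases, and its paralogs encode the same residues. Their coding sequences differ at 1 position, C9T, counted from the A of the start codon with the base of *RPL41A* first. The differing base is in capitals.
RPL41A: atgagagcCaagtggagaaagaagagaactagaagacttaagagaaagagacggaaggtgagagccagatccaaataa
RPL41B: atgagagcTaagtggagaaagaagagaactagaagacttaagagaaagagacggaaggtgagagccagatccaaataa
*RPL41A* (YDL184C) lies on chromosome IV, 130407 to 130484, minus strand (assembly R64), and *RPL41B* (YDL133C-A) on chromosome IV, 221724 to 221801, minus strand. Both coding sequences are shorter than 1 read of 100 bases, so full-length reads counted for these genes also cover bases beyond the coding sequence.

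The last 42 bases of the 5 stalk genes encode the shared acidic tail by which the stalk proteins contact translation factors. Capitals mark the 35 bases that are the same in all 5 genes, and the stop codon is included.
RPP0: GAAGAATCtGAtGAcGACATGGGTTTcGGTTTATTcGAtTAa
RPP1A: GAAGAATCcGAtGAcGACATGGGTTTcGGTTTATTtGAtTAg
RPP1B: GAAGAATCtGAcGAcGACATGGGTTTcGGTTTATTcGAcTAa
RPP2A: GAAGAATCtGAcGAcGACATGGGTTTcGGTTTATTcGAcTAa
RPP2B: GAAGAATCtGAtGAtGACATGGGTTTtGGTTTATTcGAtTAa
Despite this tail, no stretch of 100 bases in a stalk gene recurs in another gene. Only 4 members contain such stretches. *RPL35A* and *RPL35B* differ at 3 of 363 bases and shared 76.9% of their 100-base windows, and *RPL42A* and *RPL42B* differ at 6 of 321 bases and shared 11.7%. Counts within these pairs are therefore less certain than for the other 42 members, apart from the RPL41 paralogs.

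Each culture had between 110119744 and 125303818 counts in the deposited data. The study states far fewer mapped read pairs per sample. The difference was not resolved here, so these totals need not be numbers of read pairs. The members took between 3.62 and 3.80% of the counts in the mock cultures and between 2.21 and 2.27% in the auxin cultures. Counts were scaled by the trimmed mean of M values (TMM), which sets the typical gene to no change, and are given as CPM, counts per 1000000 of the scaled total. Scaling by the total counts alone raised the median log2 fold change of all features by 0.25, and the changes below are relative to the typical gene. *RIO1* mRNA itself (YOR119C) was at 19.8, 21.9 and 22.8 CPM in the mock cultures and 40.9, 39.4 and 42.7 CPM in the auxin cultures. It was higher in every auxin culture, by 0.93 ± 0.053 (SE) on the log2 scale (adjusted p = 1.76e-07, edgeR), which does not test the depletion, since the degron acts on the protein. Mating-type markers were read as a check of the strain. The a-cell genes *MFA1*, *MFA2*, *STE2*, *BAR1* and *STE6* had between 114.0 and 720.2 CPM in the 6 cultures, and of the alpha-cell genes *MF(ALPHA)1*, *MF(ALPHA)2* and *STE3* had between 0.437 and 2.04 CPM, whereas *SAG1* had between 42.3 and 46.0 CPM. *URA3*, the marker beside OsTIR1, had between 221 and 278 CPM. The study lists a mutant *ura3* allele in its strain background. Counts per gene do not tell that allele from the marker, so the value does not test for the marker.

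All 46 mRNAs were tested, and every one had a lower mean in the auxin cultures. Of these, 45 fell past an adjusted p of 0.05 in edgeR's quasi-likelihood test with Benjamini-Hochberg adjustment over all 6397 tested features, in which 38.5% were called lower. The exception was *RPL41A*, at -0.34 ± 0.19 (SE) with an adjusted p of 0.124. The median log2 fold change was -0.98 over the 46 genes and 0.00013 over all tested features, which is close to 2-fold less RNA relative to the typical gene. In 44 of the 46 genes every auxin culture lay below every mock culture, as it did for 39.3% of all tested features, and the groups overlapped for *RPL41A* and *RPL41B*. The summed level was 39045, 42082 and 41134 CPM in the mock cultures and 20397, 20331 and 20821 CPM in the auxin cultures. The mock cultures thus lay close together and far above the auxin cultures, and the ratio of the means was 0.503. In RNA from whole cultures, fewer cells that express a gene and less RNA per cell cannot be told apart.

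**Figure D1:**
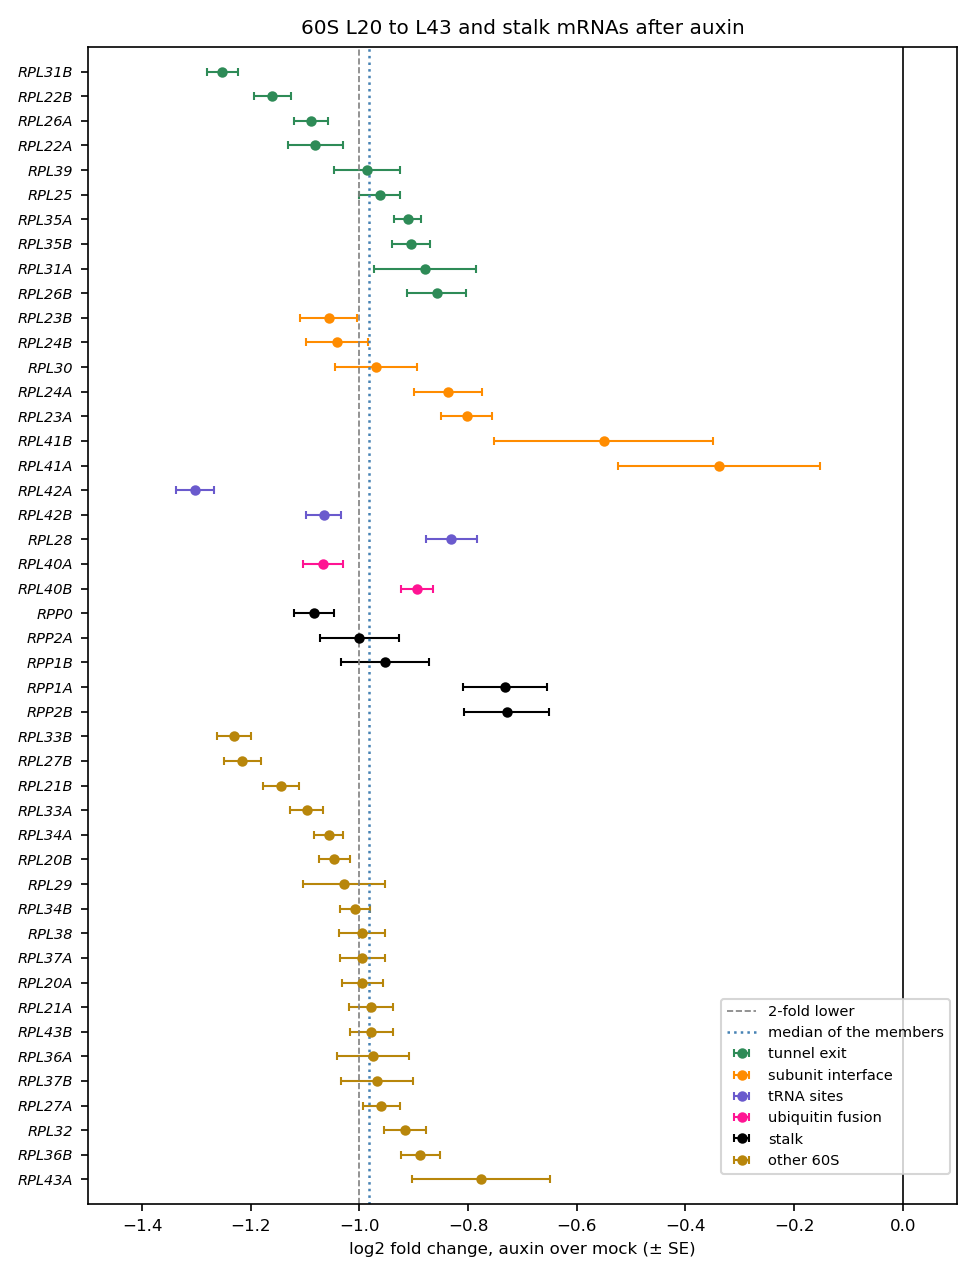
Log2 fold change (auxin over mock, ± SE of the edgeR fit) of the 46 genes, grouped by the role of the protein, with dashed and dotted lines at 2-fold lower and at the median of -0.98. All 46 points lie left of 0, from -1.30 for *RPL42A* to -0.34 for *RPL41A*, and most crowd around the 2-fold line.

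Of the 46 genes, 19 were called lower by 2-fold or more (a log2 fold change of 1 or more in size), against 2.55% of all tested features. This count turns on small differences, since 28 members lay within 0.1 log2 units of the threshold. *RPP2A* at -1.00 and *RPL34B* at -1.01 were just inside the threshold, and *RPL38*, *RPL37A* and *RPL20A*, each at -0.995, were just outside. With totals alone as the scale 2 genes remained beyond 2-fold, and without mock culture 1 the count was 30. For the 44 members other than the RPL41 paralogs, the log2 fold change lay between -1.30 and -0.73 and the adjusted p between 1.17e-09 and 0.000325.

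The other ribosomal protein genes showed much the same values. The 56 genes of the small (40S) subunit had a median log2 fold change of -0.99 (range -1.78 to -0.18), and all 56 were called lower. The 35 genes of the 60S proteins L1 to L19 had a median of -0.98 (range -1.55 to 0.084), and 33 were called lower. The 6260 tested features outside these classes had a median of 0.0093. The difference between the classes was not tested. The members spanned 0.964 log2 units from lowest to highest, against 1.60 and 1.63 in the other classes, but these ranges rest on the extreme genes. The lower and upper quartiles were alike, at -1.06 and -0.90 for the members. They were -1.06 and -0.91 for the small subunit and -1.08 and -0.91 for L1 to L19.

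**Figure D2:**
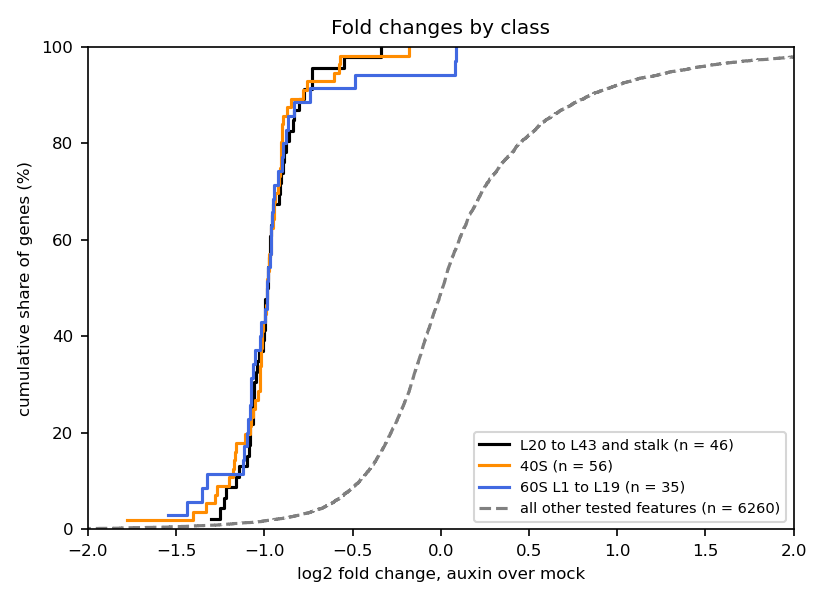
Cumulative share of genes (%) against log2 fold change (auxin over mock) for the 46 members, the 56 genes of the 40S subunit, the 35 genes of L1 to L19 and the 6260 other tested features; the curve of the other features extends beyond the x axis. The curves of the ribosomal classes run on top of each other around their medians of -0.98 to -0.99, far left of the other features.

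The cultures with number 3 stood apart for some members, in both groups. The largest differences from the mean of cultures 1 and 2, on the log2 scale, were found for *RPL41B*, at 0.68 in mock culture 3 and 0.53 in auxin culture 3. *RPL41A* was higher by 0.65 in mock culture 3 and 0.50 in auxin culture 3. *RPL43A*, with a coding sequence of 279 bases, was higher by 0.33 in mock culture 3 and 0.37 in auxin culture 3. Over the 22 members with a coding length of up to 350 bases the median was 0.17 in mock culture 3 and 0.15 in auxin culture 3, and 16 of them were higher in both. Over the 24 longer members the medians were 0.021 and 0.016, and 13 were higher in both. For the 395 other protein-coding genes of up to 350 bases the medians were 0.042 and 0.0051, and 151 were higher in both. For the 5295 longer ones the medians were -0.00205 and -0.00523, and 1716 were higher in both. Across the 46 members the differences in mock and auxin culture 3 had a Pearson correlation of 0.95, which is across genes that share these libraries. Across the other protein-coding genes it was 0.17 for those of up to 350 bases and 0.42 for the longer ones. The part of length or of these libraries in the results was not tested beyond leaving them out. With both number-3 cultures left out, 46 members were called lower, 20 beyond 2-fold, and the median was -0.98.

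**Figure D3:**
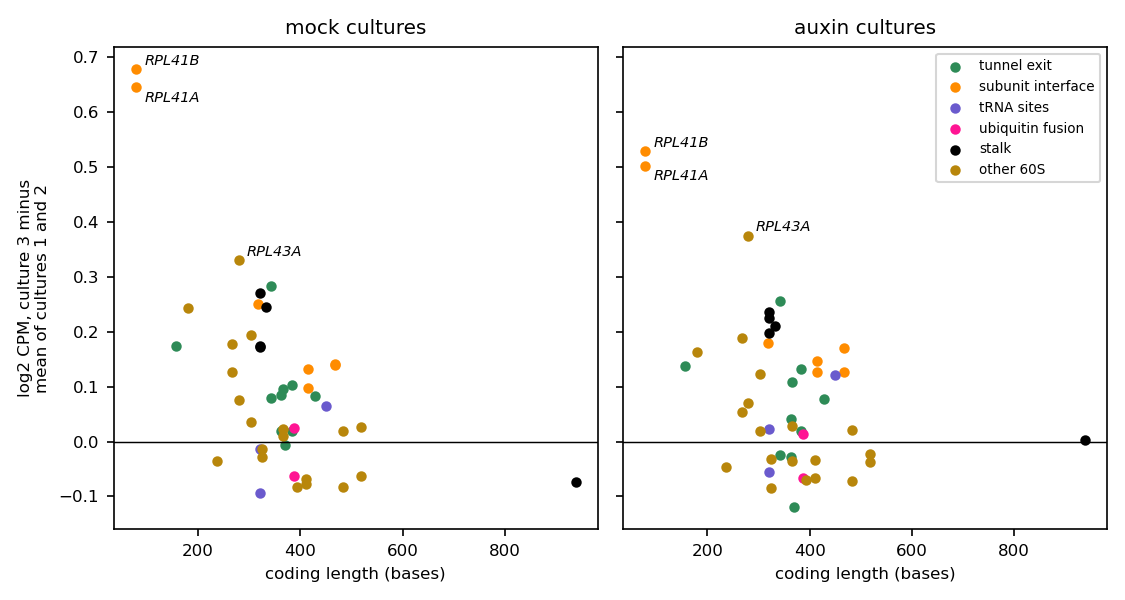
Difference in log2 CPM between culture 3 and the mean of cultures 1 and 2, for mock (left) and auxin (right) cultures, against the coding length of the 46 members in bases. *RPL41A* and *RPL41B*, at 78 bases, stand highest in both panels, from 0.50 to 0.68, and *RPL43A* follows.

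Proteins around the exit of the tunnel formed a group of 10 genes, all called lower, 4 of them beyond 2-fold (median -0.97). The lowest value belonged to *RPL31B* (YLR406C), on chromosome XII, 931065 to 931755, minus strand, whose protein lies beside the exit and contacts the ribosome-associated chaperone complex in yeast. It was at 410.3, 422 and 439.8 CPM in the mock cultures and 179, 179 and 176 CPM in the auxin cultures. The auxin cultures lay close together and far below the mock cultures, and the log2 fold change was -1.25 ± 0.029 (SE). Its paralog *RPL31A* (YDL075W) was at -0.88 ± 0.094 (SE).
L22 lies on the outer surface near the exit, and in yeast the protein represses splicing of *RPL22B*. *RPL22A* (YLR061W) was at 667, 751 and 756 CPM in the mock cultures and 335, 332 and 359.6 CPM in the auxin cultures. *RPL22B* (YFL034C-A) was at 137, 137 and 136 CPM with the mock and 62.6, 63.02 and 57.8 CPM with auxin. No auxin culture reached the lowest mock culture for either gene, and the log2 fold changes were -1.08 ± 0.051 (SE) and -1.16 ± 0.034 (SE).
L26 is a core protein of the exit. *RPL26A* (YLR344W) was at 651, 699 and 684 CPM in the mock cultures and 322, 312 and 321 CPM in the auxin cultures. *RPL26B* (YGR034W), the least lowered gene of the group, was at 373, 419 and 425 CPM with the mock and 222, 212 and 238 CPM with auxin. The groups were apart for both, with log2 fold changes of -1.09 ± 0.031 (SE) and -0.86 ± 0.055 (SE).
The single-copy gene *RPL25* (YOL127W) encodes the main docking site for the signal recognition particle and the nascent polypeptide-associated complex. It was at 1355, 1433 and 1476 CPM in the mock cultures and 713, 719 and 756 CPM in the auxin cultures. The log2 fold change was -0.96 ± 0.037 (SE), with every auxin culture low. L39, encoded by the single-copy gene *RPL39* (YJL189W), lines the tunnel close to its end. Its mRNA was at 675, 751 and 803 CPM in the mock cultures and 362, 364 and 399 CPM in the auxin cultures. The number-3 culture was the highest of each group, the groups did not overlap, and the log2 fold change was -0.99 ± 0.061 (SE).
L35 also sits at the exit. *RPL35A* (YDL191W) was at -0.91 ± 0.024 (SE) and *RPL35B* (YDL136W) at -0.90 ± 0.035 (SE), with the reservation that part of their reads cannot be assigned to one of them.

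The 7 genes for proteins that face the small subunit had the widest range, from -1.06 to -0.34, and 6 were called lower, 2 of them beyond 2-fold (median -0.84). L23 carries the site where the assembly factor Tif6 keeps the subunits apart until the large one is mature. *RPL23B* (YER117W) was at 485, 534 and 557 CPM in the mock cultures and 244, 246 and 267 CPM in the auxin cultures. All auxin cultures were low, and the log2 fold change was -1.06 ± 0.053 (SE). *RPL23A* (YBL087C) was at -0.80 ± 0.047 (SE). L24 enters the particle late, in exchange for the placeholder Rlp24, and forms a bridge to the small subunit. *RPL24B* (YGR148C) was at 652, 733 and 762 CPM in the mock cultures and 337, 338 and 368 CPM in the auxin cultures. Every auxin culture was low, and the log2 fold change was -1.04 ± 0.057 (SE). *RPL24A* (YGL031C) was at -0.84 ± 0.062 (SE).
L30, a bridge protein that in yeast also represses splicing of its own transcript, comes from the single-copy gene *RPL30* (YGL030W). It was at 349, 377 and 431 CPM in the mock cultures and 187, 189.8 and 213 CPM in the auxin cultures. The number-3 culture was highest in each group without overlap between groups, and the log2 fold change was -0.97 ± 0.075 (SE).
L41 is a short helix at the interface. *RPL41A* was at 206, 226 and 337 CPM in the mock cultures and 176, 180.0 and 252 CPM in the auxin cultures. *RPL41B* was at 39.1, 48.01 and 69.3 CPM with the mock and 30.9, 31.1 and 44.7 CPM with auxin. Mock culture 3 was the highest for both, and auxin culture 3 lay above mock cultures 1 and 2 for *RPL41A* and above mock culture 1 for *RPL41B*, so the groups overlapped. *RPL41B* had a log2 fold change of -0.55 ± 0.20 (SE) with an adjusted p of 0.0312. With both number-3 cultures left out, *RPL41A* was at -0.28 (adjusted p = 0.000102) and *RPL41B* at -0.49 (adjusted p = 0.00015, both edgeR), and both were then called lower. The call for *RPL41A* was also gained without mock culture 1, at -0.48 (adjusted p = 0.0266), and without auxin culture 3, at -0.53 (adjusted p = 0.0262), in edgeR. Without mock culture 3 its value shrank to -0.10 (adjusted p = 0.491). For *RPL41B* the call was lost while the value stayed as large without mock culture 2, at -0.61 (adjusted p = 0.0608), and with DESeq2, at -0.55 (adjusted p = 0.0947). It was lost with a smaller value without mock culture 3, at -0.30 (adjusted p = 0.0814), auxin culture 1, at -0.46 (adjusted p = 0.106), auxin culture 2, at -0.46 (adjusted p = 0.0964), or both number-2 cultures, at -0.52 (adjusted p = 0.153), and with totals alone, at -0.30 (adjusted p = 0.183). Their values stood above those of the other members, of which the highest was -0.73. Of 13 tested genes with a coding length of up to 100 bases outside the ribosome, 9 were called higher (median log2 fold change 0.68). Among all tested features 38.5% were called higher, and the part of length in the L41 values was not tested.

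**Figure D4:**
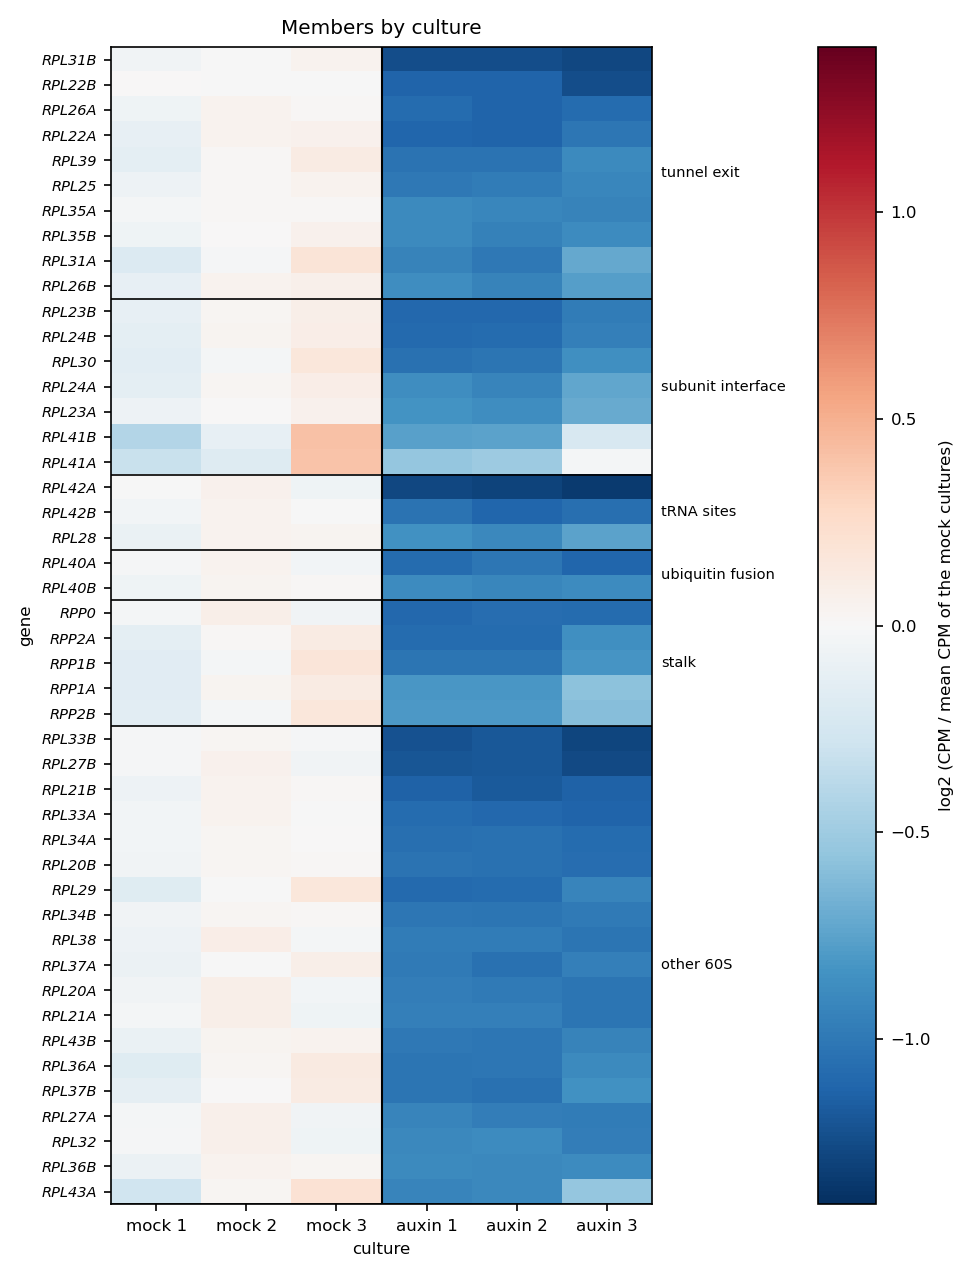
Log2 ratio of the CPM in each culture (columns) to the mean of the mock cultures, for the 46 genes (rows) grouped by role; blue is lower and red higher. The auxin columns are blue throughout except for auxin culture 3 of *RPL41A*, which is near 0, and mock culture 3 is the reddest cell for *RPL41A* and *RPL41B*.

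L42 and L28 reach toward the tRNA sites, and changes in either protein give yeast resistance to cycloheximide. All 3 genes were called lower. *RPL42A* (YNL162W), on chromosome XIV, 331322 to 332154, plus strand, had the lowest log2 fold change of the 46 members, -1.30 ± 0.035 (SE). It was at 701, 736 and 674 CPM in the mock cultures and 292, 286 and 278 CPM in the auxin cultures. Its paralog *RPL42B* (YHR141C) was at 642, 683 and 655 CPM with the mock and 322, 305 and 318 CPM with auxin, or -1.07 ± 0.032 (SE). For both genes every auxin culture was under the lowest mock culture by more than the whole spread of either group. The single-copy gene *RPL28* (YGL103W) was at 1317, 1454 and 1448 CPM in the mock cultures and 782, 755 and 835 CPM in the auxin cultures, and at -0.83 ± 0.048 (SE) it was the least lowered of the single-copy genes.

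L40 is made as a fusion to ubiquitin, which is cleaved off, so that its genes also supply ubiquitin. *RPL40A* (YIL148W) was at 1912, 2004 and 1873 CPM in the mock cultures and 911, 959 and 892 CPM in the auxin cultures. *RPL40B* (YKR094C) was at 1044, 1116 and 1098 CPM with the mock and 589, 577 and 588 CPM with auxin. Both were low in every auxin culture, with log2 fold changes of -1.07 ± 0.036 (SE) and -0.89 ± 0.030 (SE).

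The 5 stalk genes were all called lower, 2 of them beyond 2-fold (median -0.95). P0, the base of the stalk, binds the rRNA and carries the P1 and P2 proteins, and in yeast these form the dimers P1A with P2B and P1B with P2A. *RPP0* (YLR340W), on chromosome XII, 805887 to 806825, plus strand, was at 4294, 4625 and 4235 CPM in the mock cultures and 2048, 2087 and 2071 CPM in the auxin cultures. Every auxin culture was low, and the log2 fold change was -1.08 ± 0.037 (SE), the lowest of the 5 genes.
*RPP1A* (YDL081C), on chromosome IV, 309802 to 310122, minus strand, was at 516, 589.9 and 622 CPM in the mock cultures and 327, 328 and 386 CPM in the auxin cultures. *RPP2B* (YDR382W), on chromosome IV, 1239492 to 1239824, plus strand, was at 314, 340.0 and 387 CPM with the mock and 198, 199 and 230.1 CPM with auxin. The groups did not overlap, and these partners had nearly the same log2 fold change, -0.73 ± 0.077 (SE) and -0.73 ± 0.078 (SE).
*RPP1B* (YDL130W), on chromosome IV, 229906 to 230527, plus strand, was at 332, 363 and 419 CPM in the mock cultures and 182, 183 and 209.7 CPM in the auxin cultures. *RPP2A* (YOL039W), on chromosome XV, 254297 to 254617, plus strand, was at 440.4, 488 and 523 CPM with the mock and 229, 229 and 268 CPM with auxin. The groups were again apart, at -0.95 ± 0.081 (SE) and -1.00 ± 0.073 (SE). The grouping by dimer was noticed after the values were seen and was not tested. Culture 3 was the highest of its group for RPP1A, RPP1B, RPP2A and RPP2B but not for the longer *RPP0* in either group. The summed level of the 5 genes was 6163 ± 256 CPM in the mock and 3059 ± 94.0 CPM in the auxin cultures (SD, n = 3), a ratio of 0.496, beside 0.505 for the other 41 genes.

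The remaining 19 genes encode proteins of the body and surface of the large subunit, and all 19 were called lower, 8 beyond 2-fold (median -0.995). L33 and L27 are structural proteins bound to the rRNA. *RPL33B* (YOR234C) was at 574, 591 and 571 CPM in the mock cultures and 248, 255 and 237 CPM in the auxin cultures. *RPL33A* (YPL143W) was at 1458, 1555 and 1492 CPM with the mock and 711, 702 and 692 CPM with auxin. The auxin cultures lay close together and low for both, at -1.23 ± 0.031 (SE) and -1.10 ± 0.030 (SE). *RPL27B* (YDR471W) was at 987, 1038 and 960.0 CPM in the mock cultures and 434, 436 and 416 CPM in the auxin cultures, or -1.22 ± 0.035 (SE), and *RPL27A* (YHR010W) was at -0.96 ± 0.034 (SE).
*RPL21B* (YPL079W) was at 726, 790.1 and 768 CPM in the mock cultures and 348, 338 and 348 CPM in the auxin cultures. *RPL34A* (YER056C-A) was at 849.7, 889.7 and 875 CPM with the mock and 421, 424 and 412 CPM with auxin. *RPL34B* (YIL052C) was at 804, 848 and 839 CPM with the mock and 411, 409 and 418 CPM with auxin. In all of these every auxin culture was low, with log2 fold changes of -1.14 ± 0.033 (SE), -1.06 ± 0.026 (SE) and -1.01 ± 0.027 (SE). *RPL20B* (YOR312C) was at 1349, 1428 and 1414 CPM in the mock cultures and 684, 676 and 669.6 CPM in the auxin cultures, or -1.05 ± 0.029 (SE), again with all auxin cultures low.
The single-copy genes of this group were *RPL29* (YFR032C-A), *RPL32* (YBL092W) and *RPL38* (YLR325C). *RPL29*, whose product is not essential in yeast, was at 68.6, 76.4 and 85.7 CPM in the mock cultures and 36.03, 36.4 and 40.6 CPM in the auxin cultures. *RPL32* was at 3144, 3319 and 3050.3 CPM with the mock and 1699, 1717 and 1626 CPM with auxin. *RPL38* was at 1259, 1415 and 1302 CPM with the mock and 670.0, 673 and 650.4 CPM with auxin. For each of them every auxin culture lay below every mock culture, and the log2 fold changes were -1.03 ± 0.076 (SE), -0.92 ± 0.038 (SE) and -0.995 ± 0.042 (SE).
*RPL43A* (YPR043W) was the least lowered of the group, at 384, 472 and 536 CPM in the mock cultures and 244, 249 and 319 CPM in the auxin cultures. The groups did not overlap, but culture 3 was highest in each, and the log2 fold change was -0.78 ± 0.13 (SE). It was -0.80 with both number-3 cultures left out. Of the remaining genes, *RPL43B* (YJR094W-A) was at -0.98, *RPL20A* (YMR242C) at -0.99, *RPL21A* (YBR191W) at -0.98, *RPL36A* (YMR194W) at -0.98, *RPL36B* (YPL249C-A) at -0.89, *RPL37A* (YLR185W) at -0.995 and *RPL37B* (YDR500C) at -0.97, with SE between 0.0352 and 0.0665.

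The 46 genes make 27 proteins, and summing the paralogs per kb of coding sequence allowed their mRNA levels to be ordered. These levels rest on coding length alone, since transcript ends were not used, and are least sure for L41. In the mock cultures the highest level was that of *RPL32*, at 8069.6 ± 348 CPM per kb (SD, n = 3), followed by L40 at 7792 ± 235 CPM per kb (SD, n = 3). *RPL32* was above L40 in each culture, but the means differed by less than the SD of the former. L33 and L27 came next, at 6422 ± 181 CPM per kb (SD, n = 3) and 6393 ± 263 CPM per kb (SD, n = 3), and did not differ beyond their spread either. The lowest levels were those of *RPL30*, at 1213 ± 132 CPM per kb (SD, n = 3), and *RPL29*, at 427 ± 47.5 CPM per kb (SD, n = 3), which stood apart from each other and from the rest. The highest level was 18.9 times the lowest, and the median was 3346 CPM per kb.
In the auxin cultures *RPL32* at 4276 ± 122 CPM per kb (SD, n = 3) and L40 at 3889.8 ± 72.6 CPM per kb (SD, n = 3) were again the highest, and *RPL30* and *RPL29* the lowest. L41 moved from place 13 to place 5, from 3957 ± 1105 CPM per kb (SD, n = 3) to 3055 ± 650.2 CPM per kb (SD, n = 3), with a ratio of 0.772. The place in the auxin cultures rests on culture 3, as L41 was at 2654, 2706 and 3806 CPM per kb in the auxin cultures, and over cultures 1 and 2 alone it took place 13 in the mock and place 8 in the auxin cultures. The ratio of the other proteins lay between 0.440 for L42 and 0.569 for P1. The order was otherwise kept closely, with a Spearman correlation of 0.97 over the 27 proteins, which share the 6 libraries. The level in the mock cultures and the log2 ratio had a Spearman correlation of -0.15 over the same proteins.
In the stalk, P0, P1 and P2 had 4669 ± 224 CPM per kb (SD, n = 3), 2951 ± 299.8 CPM per kb (SD, n = 3) and 2549.6 ± 239 CPM per kb (SD, n = 3) in the mock cultures. In the auxin cultures they had 2203 ± 20.9 CPM per kb (SD, n = 3), 1678 ± 153 CPM per kb (SD, n = 3) and 1382 ± 124 CPM per kb (SD, n = 3). P1 was above P2 and P0 above both in each culture.

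Paralogs did not always fall by the same amount. The share of copy A in each pair was computed from the counts per coding length, and the log2 ratio of A to B was tested with limma over all 59 ribosomal protein pairs, of which 62.7% differed between auxin and mock at an adjusted p of 0.05. Of the 19 pairs among the members, 12 differed, with absolute differences from 0.14 to 0.38 on the log2 scale. Copy A fell less in 8 of them and copy B in 4, and the copy with the higher level fell more in 7 and less in 5. For comparison, 13 of 16 pairs of L1 to L19 and 12 of 24 pairs of the small subunit differed.
The widest difference was found for RPL31, where *RPL31A* made up 33.7, 35.7 and 37.9% in the mock cultures and 40.9, 39.8 and 45.1% in the auxin cultures. Every auxin culture was above every mock culture, and the difference was 0.38 ± 0.10 (SE) (adjusted p = 0.012, limma). With both number-2 cultures left out it was 0.44 and the adjusted p rose to 0.0695, and RPL21 and RPL41 (adjusted p = 0.0695 and 0.0888, limma) then lost their calls as well. *RPL23A* rose from the smaller share toward parity, with 45.02, 43.97 and 43.9% in the mock cultures and 48.9, 48.2 and 48.9% in the auxin cultures. The difference was 0.25 ± 0.034 (SE), between paralogs that encode the same residues. *RPL27A*, the more abundant copy, took 61.9, 62.2 and 62.2% in the mock cultures and 66.4, 65.7 and 66.5% in the auxin cultures. It gained share in every auxin culture, and the difference was 0.26 ± 0.019 (SE).
In RPL42 the order of the copies changed. *RPL42A* made up 52.2, 51.9 and 50.7% in the mock cultures and 47.5, 48.4 and 46.6% in the auxin cultures, above 50% in every mock culture and below it in every auxin culture, with a difference of -0.24 ± 0.038 (SE) (adjusted p = 0.00121, limma). The RPL24 copies were near parity with the mock, as *RPL24A* took 49.9, 49.8 and 49.8% in the mock cultures. It took 53.6, 52.6 and 53.9% in the auxin cultures, a difference of 0.20 ± 0.026 (SE). In both pairs the order rests on counts per coding length, and a crossing of 50% was not tested. The RPL42 paralogs share 11.7% of their windows, and the RPL24 paralogs none.
In the stalk both pairs differed, in opposite directions. *RPP1A* took 60.8, 61.9 and 59.7% in the mock cultures and 64.2, 64.1 and 64.8% in the auxin cultures of P1 mRNA, a difference of 0.22 ± 0.041 (SE) (adjusted p = 0.00276, limma). *RPP2A* took 59.3, 59.8 and 58.4% in the mock cultures and 54.5, 54.4 and 54.7% in the auxin cultures of P2 mRNA, a difference of -0.27 ± 0.036 (SE) (adjusted p = 0.000431, limma). The share of *RPP1A* in P1 mRNA was higher, and that of *RPP2A* in P2 mRNA lower, in every auxin culture than in every mock culture.
The other pairs past the threshold were RPL26 (-0.23), RPL41 (0.21), RPL40 (-0.17), RPL21 (0.17) and RPL33 (0.14). In the remaining 7 pairs the difference did not pass. Its 95% interval, with 4 residual degrees of freedom, was -0.026 to 0.13 for RPL20, -0.14 to 0.31 for RPL22, -0.12 to 0.02 for RPL34, -0.11 to 0.094 for RPL35, -0.24 to 0.071 for RPL36, -0.17 to 0.11 for RPL37 and -0.11 to 0.51 for RPL43. The limma test itself had more degrees of freedom, gained across the pairs, so its own intervals would be narrower. The intervals given are narrow for RPL34 and RPL20, whereas for RPL43 they leave room for a difference as wide as any of those called. RPL20 passed when mock culture 2 was left out (adjusted p = 0.0337, limma) and RPL43 when mock culture 3 was (adjusted p = 0.0462, limma) or when both number-3 cultures were (adjusted p = 0.0432, limma). RPL33 lost its call with both number-1 cultures left out (adjusted p = 0.0738, limma). The pair RPL36 was the most uneven, with *RPL36A* at 10.03, 10.4 and 11.3% in the mock cultures and 9.72, 9.88 and 10.5% in the auxin cultures.

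**Figure D5:**
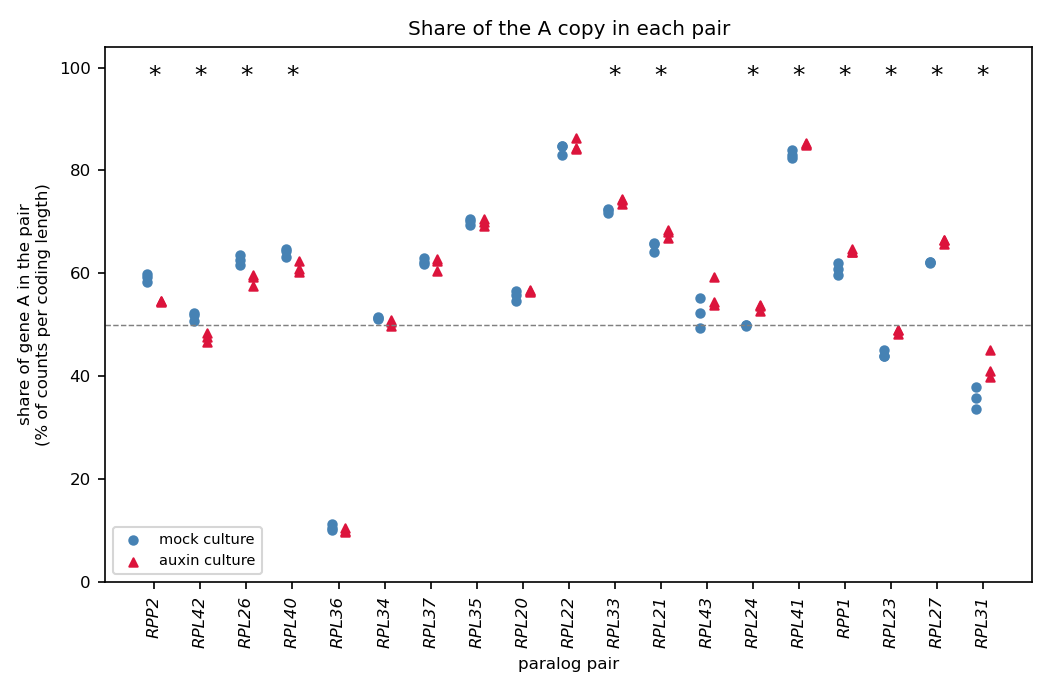
Share of copy A in the counts per coding length of each of the 19 member pairs (%), by culture, for mock (circles) and auxin (triangles); a star marks an adjusted p of at most 0.05 in limma. Pairs are ordered by the difference in log2 ratio, from RPP2 at -0.27 to RPL31 at 0.38, and the shares span from 9.72% in RPL36 to 86.2% in RPL22.

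Properties of the genes that had no part in choosing them were set beside the fold changes. In 35 members the gene has an intron, and these had a median log2 fold change of -0.99 (range -1.30 to -0.78) and the 11 without one a median of -0.92 (range -1.08 to -0.34), the latter holding the RPL41 paralogs. The 500 bases before each start codon were searched on both strands for the letters ACCCNTACA, a core of the Rap1 site, and for CCNTACA, which the core contains. The core was present before 15 of the 46 members (32.6%), against 1.80% of 6005 promoters of the same length, and the shorter form before 31 (67.4%), against 15.8%. Members with and without the core had medians of -0.98 and -0.99. GATGAG, the PAC element of ribosome assembly genes, was found before 23.9% of the members and 28.2% of all promoters, and TGACTC, bound by Gcn4, before 2.17% and 12.6%. Matches are letters in a window and do not show binding.
Stretches of 50 bases around the core, in capitals, are shown for the least lowered member that has it, for a strongly lowered one and for both copies of L33 to show how position and flanks vary. The first base of the core lay 344 bases before the start codon in *RPL41B*, 245 in *RPL22B*, 354 in *RPL33A* and 470 in *RPL33B*.
RPL41B, chrIV:222116-222165, minus strand: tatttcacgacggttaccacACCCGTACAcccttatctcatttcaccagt
RPL22B, chrVI:65148-65197, minus strand: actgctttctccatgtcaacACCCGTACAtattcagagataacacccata
RPL33A, chrXVI:281748-281797, plus strand: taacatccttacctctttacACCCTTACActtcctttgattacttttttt
RPL33B, chrXV:779846-779895, minus strand: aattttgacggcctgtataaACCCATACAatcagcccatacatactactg
The log2 fold changes of these genes were -0.55, -1.16, -1.10 and -1.23. They were picked from the extremes of the fold change, so the contrast between them was set by that choice. For *RPL41B* the groups overlapped. Whether the core goes with the size of the fall was not tested. Some members neighbour another ribosomal protein gene. *RPL24A* and *RPL30* diverge from a region of 1156 bases and were at -0.84 and -0.97.

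Genes that act with these proteins were read from lists chosen by function, with earlier results of these data known. Of 15 factors that place the proteins in the large subunit or release it to the cytoplasm, 15 were called higher, against 38.5% of all tested features (median log2 fold change 0.65). *YVH1*, whose product releases Mrt4 so that P0 can bind, was at 71.3, 77.1 and 77.3 CPM with the mock and 144, 145 and 143 CPM with auxin. *EFL1*, the GTPase that evicts Tif6, was the lowest, at 139, 143 and 146 CPM with the mock and 167, 169 and 174 CPM with auxin. Both were higher in every auxin culture, by 0.93 ± 0.033 (SE) and 0.25 ± 0.027 (SE). *MRT4*, the placeholder for P0, was at 0.65, *RLP24*, that for L24, at 0.68, and *BCP1*, the chaperone of L23, at 0.93. The mRNAs of these proteins and of their assembly factors thus moved in opposite directions relative to the typical gene, and they did so with totals alone as the scale as well, under which all 15 were called higher and 44 of the 46 members lower.
Of 10 genes listed as transcription regulators of ribosomal protein genes, 5 were called higher and 4 lower (median 0.083). With totals alone 8 were higher and 2 lower (median 0.33). Not every listed gene need act on the members. Among all tested features 38.5% were called higher and 38.5% lower with TMM. *CRF1*, a corepressor that acts on Ifh1, was at 1.24, 1.25 and 1.21 CPM with the mock and 2.96, 2.61 and 2.71 CPM with auxin, or 1.16 ± 0.10 (SE). *TOD6*, a repressor that binds the PAC element of ribosome assembly genes, was at 154, 154 and 145 CPM with the mock. It was at 305, 319.7 and 293 CPM with auxin, or 1.02 ± 0.038 (SE), and whether it acts on the members was not tested. *DOT6*, another gene of this list, went the other way, at 189, 187 and 179 CPM with the mock and 143, 147 and 144 CPM with auxin. Its log2 fold change was -0.36 ± 0.027 (SE), and with totals alone it was still called lower (-0.11, adjusted p = 0.00506, edgeR). *STB3*, a repressor of growth genes, was at 96.1, 91.1 and 89.8 CPM with the mock and 64.6, 66.5 and 62.6 CPM with auxin, or -0.52 ± 0.034 (SE). *FHL1*, *IFH1* and *HMO1* were at 0.20, 0.24 and 0.33, whereas *RAP1* was at -0.037 and did not pass (adjusted p = 0.199, edgeR). *SFP1* at -0.093 and *ABF1* at -0.078 were called lower, but with totals alone both were called higher, as was *RAP1* (0.15, 0.17 and 0.21, adjusted p = 0.00223, 0.000866 and 1.29e-05, edgeR).
Of 12 factors that meet the nascent chain at the tunnel exit, 5 were called lower and 3 higher (median -0.0025). The share over all tested features was 38.5% in each direction. With totals alone 3 of the 12 factors were lower and 7 higher (median 0.25). The chaperone gene *SSB1* was the lowest, at 6804, 7298 and 6886 CPM with the mock and 5087, 5173 and 5132 CPM with auxin, or -0.45 ± 0.035 (SE). *MAP1*, which removes the first methionine, was the highest, at 256, 264 and 247 CPM with the mock and 329, 327 and 312 CPM with auxin, or 0.34 ± 0.032 (SE). Of 8 genes for elongation factors and other proteins that meet the stalk, 6 were called lower and 2 higher (median -0.28), and with totals alone 4 were lower and 3 higher. With TMM, 38.5% of all tested features were called lower and 38.5% higher. *EFT2*, a gene for elongation factor eEF2, was the lowest, at 2571, 2692 and 2603 CPM with the mock and 1668, 1661 and 1712 CPM with auxin, or -0.64 ± 0.029 (SE). *RLI1*, which recycles ribosomes, was the highest, at 402, 419 and 412 CPM with the mock and 479, 476 and 471 CPM with auxin, or 0.21 ± 0.025 (SE). No gene of these lists fell as far as the median member.
*ACT1* and *PGK1*, common reference mRNAs, were themselves lower, at -0.31 ± 0.038 (SE) and -0.54 ± 0.043 (SE), and with totals alone *ACT1* was at -0.06 and did not pass (adjusted p = 0.0807, edgeR). *ACT1* was at 4936, 5136 and 4718 CPM with the mock and 4031, 4042 and 3875 CPM with auxin. *PGK1* was at 4844, 5107 and 5201 CPM with the mock and 3349, 3382 and 3661 CPM with auxin. Against either of them the members were still lower by a further 0.67 or 0.44 on the log2 scale at their median.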

How the data were processed

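The authors extracted total RNA, removed rRNA (QIASeq FastSelect), made directional libraries with UMI adaptors and sequenced paired reads of 100 bases. They trimmed with Trimmomatic, aligned with STAR to sacCer3 (R64) and deposited raw counts per gene from STAR. Uniquely mapped reads alone enter such counts, which lowers values where paralogs are alike. Handling of duplicates and the annotation release are not given in the sources used here. A protocol label names auxin for all cultures, and the treatment label separated the groups. The labels call the cultures biological repeats.

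The deposited counts were filtered with filterByExpr, scaled by TMM and tested with edgeR 4.0.16 (quasi-likelihood, condition only, Benjamini-Hochberg over 6397 features) in R 4.3.3. Calls needed an adjusted p of 0.05 or less, and those beyond 2-fold also a log2 fold change of 1 or more in size. Paralog ratios, log2 of counts plus 0.5, were tested with limma 3.58.1 over 59 pairs. Alternatives were other scalings, DESeq2 1.42.0, other filters, a replicate block and leaving out cultures. The tests were tried on simulated counts with the same dispersion for all genes and no effect shared by the genes of a culture. There edgeR recovered 64 of 66 genes changed by 0.5 on the log2 scale, with 11 false calls among 6271 tested. This setting does not cover the wider spread of the RPL41 paralogs or the differences of the number-3 cultures. The deposited counts, 110119744 or more per culture, gave every member a mean of at least 4583 counts. They exceed the mapped read pairs that the study states, so they need not measure depth. Members and lists were chosen with earlier results of these data known. Every member is named, and values by culture are given for stalk and single-copy genes, for the extremes of each role and for genes beyond 2-fold. Of the lists, the highest and lowest genes are given, and others named were chosen after their values were seen. Python 3.11.15 assembled the tables.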

Additional observations from a re-analysis of the deposited data

How the results depend on the processing

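All 46 members kept a negative log2 fold change under every alternative run, and the number called lower stayed between 44 and 46, with *RPL41A* and *RPL41B* as the members whose call changed. Scaling by totals alone moved the median log2 fold change of the members from -0.98 to -0.73, the ratio of summed CPM from 0.503 to 0.598, and the number beyond 2-fold from 19 to 2. This follows from its construction, since it raises all log2 fold changes by about the same amount. Leaving out each culture in turn gave between 44 and 46 members called lower, between 18 and 30 beyond 2-fold, with 30 without mock replicate 1, a median between -1.04 and -0.96, a ratio of sums between 0.493 and 0.512 and between 12 and 13 paralog pairs that differed. The cause of the high count without that culture was not tested. Deviations of same-numbered mock and auxin cultures correlated at 0.16, -0.030 and 0.25, and not every culture correlated best with its own number, so the numbers were not taken to pair the cultures. With the replicate number as a block, 46 members were called lower, 19 were beyond 2-fold, the median was -0.98 and 14 pairs differed, the added ones being RPL36 and RPL43, and *RPL41A* was called (adjusted p = 8.23e-07, edgeR). Leaving out both cultures of a number, an alternative chosen after the data were seen, gave 17 to 28 members beyond 2-fold and 9 to 13 pairs that differed. The common coefficient of variation between cultures was 3.775% over all tested features, not over the members alone. Among the members the SE ran from 0.024 for *RPL35A* to 0.20 for *RPL41B*. The parts of counting and of the spread between cultures were not compared for single members.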
